A study of Mus musculus with 6 samples.

Results

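Hnf4a, Ppara, Rxra, Esrra and Maf are 5 transcription factors known from the maturation of the proximal tubule, the nephron segment that recovers most of the filtered salt, glucose, amino acids and protein. They were taken by name as the listed regulators that have a row in the deposited table of 11578 genes, so their presence there is not a result. RNA came from fetal mouse kidneys, 3 carrying the SRM deletion mutant genotype (libraries 328, 336 and 342) and 3 that were Sall1 wild type (libraries 330, 331 and 337). The SRM is the short repression motif through which Sall1, a zinc finger protein of the nephron progenitors, binds the NuRD chromatin remodelling complex. The stage is E17 in one label and E17.5 in another, and the labels name no treatment. The labels give neither zygosity, strain, sex nor litter and do not say that the kidneys came from separate embryos. A p-value here thus covers the spread among these samples alone, which may be technical. The comparison asks which transcripts differ in developing kidneys that carry the SRM deletion. Whether the Sall1 to NuRD link was lost in them was not tested.

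Of the 5, 4 are nuclear receptors. Hnf4a binds DNA as a dimer of itself, and in the mouse its loss from nephron progenitors leaves the proximal tubule immature. Rxra is the common partner with which other receptors, Ppara among them, pair on DNA. Ppara is activated by fatty acids and drives the genes that burn them, the main fuel of the proximal tubule. Esrra, an orphan receptor, works with PGC-1 coactivators on mitochondrial genes. Maf is a basic leucine zipper protein that is also known from macrophages and the lens.

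Coordinates are those of the GENCODE M21 annotation on GRCm38 (mm10, the build named in the submitters' processing notes). Hnf4a lies on chromosome 2 from 163506808 to 163572910 on the plus strand, and Rxra on the same chromosome from 27676440 to 27762957, also on the plus strand. Ppara lies on the plus strand of chromosome 15 from 85734983 to 85802819. Esrra lies on the minus strand of chromosome 19 from 6910977 to 6921813 and Maf on the minus strand of chromosome 8 from 115682942 to 115707794. Genes on the opposite strand overlap 3 of them, Hnf4aos at Hnf4a, Trmt112 at Esrra and Gm15655 at Maf. Whether reads were counted by strand is not given in the sources used here, so reads of such a pair may not be separated.

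In the RefSeq promoter table (GRCm38.p6, 250 bases before to 50 after each start site), 4 of the 5 genes had 6 promoters, 2 each for Hnf4a and Rxra. The start sites of Hnf4a lie 40298 bases apart, and 1 value per gene cannot tell their transcripts apart. The downstream Rxra promoter is shown because AGGTCA, the hexamer read by most of these receptors, stands there at 2 places, once on each strand (capitals), as 2 or more do in 1.81% of 32851 promoters. Slc3a1, a subunit of the tubular cystine transporter, is shown as a proximal tubule gene with CAAAGTCCA, a sequence of the type bound by Hnf4a (capitals), which 0.475% of promoters hold on either strand. The sequences run 5′ to 3′ on the plus strand and end at the base before the start site.
Rxra, chr2:27709172-27709291: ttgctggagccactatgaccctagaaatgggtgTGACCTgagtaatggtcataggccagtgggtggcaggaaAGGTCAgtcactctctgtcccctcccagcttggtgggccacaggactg
Slc3a1, chr17:85028267-85028346: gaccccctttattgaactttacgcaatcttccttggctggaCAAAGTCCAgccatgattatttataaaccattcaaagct
These are matches of letters and not shown to be bound sites. Searched on both strands, a pair of AGGTCA hexamers in the same direction with 1 base between (DR1, in 0.0396% of promoters), the Esrra-type TCAAGGTCA (0.423%, overlapping AGGTCA) and the Maf-type TGCTGAC (4.67%) stood in 0 of the 6 windows. That says nothing about the factors themselves.

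The 6 libraries had been scaled by the authors to totals between 555147910 and 559251769. The spacing of the values put the estimated depth of mutant 336 at 1.92 times and of wild type 331 at 1.54 times that of wild type 337, the shallowest. That of mutants 328 and 342 and wild type 330 was 3.99 to 4.34 times, on a weaker periodicity. Mutant 336 and wild types 331 and 337 are called the lower and the others the higher depth class. Sall1 itself had a signal of 130258 to 161553 in mutants and 152644 to 176175 in wild types. The deletion takes out a motif and not the transcript, so this level does not check the genotype labels. Of 27 proximal tubule markers 26 were analysed, among them Lrp2 (megalin), with a mean signal of 398061, so the segment was represented. Over all genes 33 passed a limma adjusted p (Benjamini-Hochberg) of 0.05, 0.285% of those tested, with 0.199% higher and 0.0864% lower in mutants.

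The 5 regulators had signal in every library, but only 3 genes of the deposited table had a value of 0 in any library. None of the 5 passed the test for a difference between mutant and wild type kidneys. In limma 0 of 5 had an adjusted p under 0.05, and 0 of 5 had an unadjusted p under 0.05, where 19.0% of all genes did. The authors' deposited table gives a p-value of at least 0.101 for each of them, and 8.71% of all genes there are under 0.05. The mutant and wild type values of 1 of the 5, Rxra, did not overlap, as was the case for 19.5% of all genes. Log2 differences are mutant minus wild type on log2(signal + 1), and fewer cells of a type and less RNA per cell cannot be told apart in whole kidney.

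**Figure D1:**
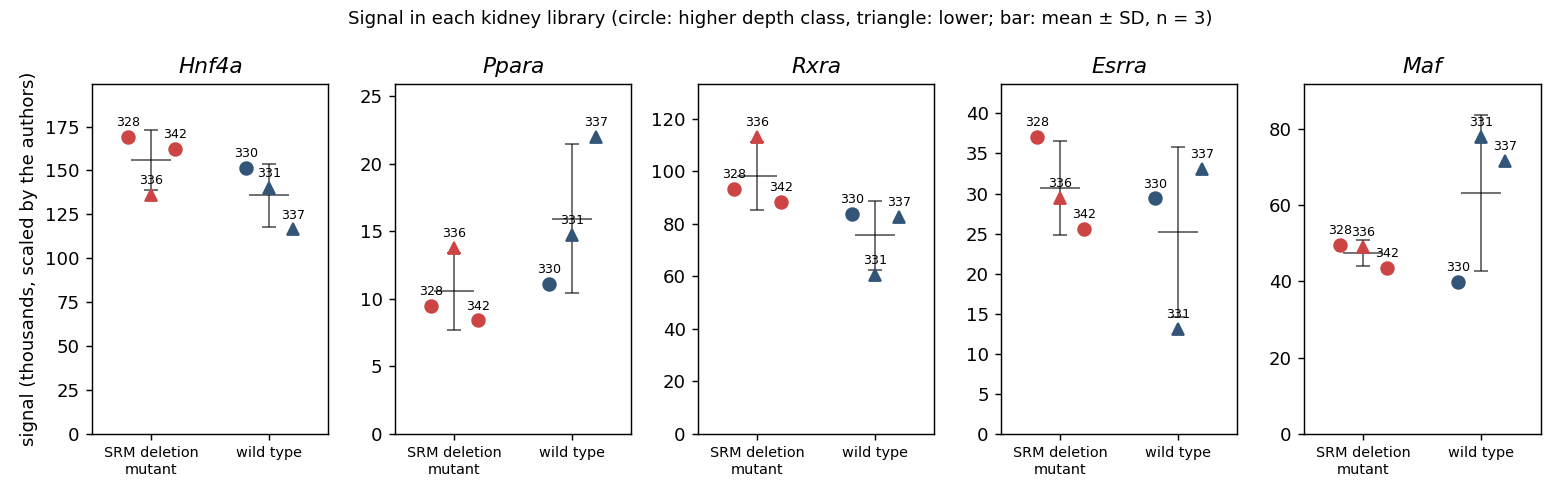
Signal (in units of 1000, linear axis from 0) of each regulator in the 3 SRM deletion mutant and the 3 wild type libraries, labelled by library number, with circles for the higher and triangles for the lower depth class and bars for the mean ± SD (n = 3). The groups are apart for Rxra and overlap for the other 4 genes.

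Hnf4a, the receptor made by differentiated proximal tubule cells, had a signal of 169008, 136276 and 162290 in mutants 328, 336 and 342, against 151225, 139837 and 116389 in wild types 330, 331 and 337. Mutant 336 lay below 2 of the wild types, so the groups overlapped. The means were 155858 ± 17288 in mutants and 135817 ± 17763 in wild types (SD, n = 3 each). Its log2 difference was 0.20 (SE 0.17, 95% interval -0.17 to 0.57, adjusted p = 0.492 in limma). Every library of the lower depth class lay below every library of the higher one. With depth class as a covariate the log2 difference was 0.11. It was -0.029 once each library's dependence on transcript length and GC content had been taken out, a step called length and GC adjustment below.

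Rxra, the shared partner, had 93388, 113003 and 88334 in mutants 328, 336 and 342, against 83655, 60431 and 82672 in wild types 330, 331 and 337. The lowest mutant was above the highest wild type by less than the range within either group. The log2 difference was 0.39 (SE 0.19, 95% interval -0.0214 to 0.79, adjusted p = 0.274 in limma). An exact permutation test over the 6 libraries (two-sided) gave p = 0.1, the smallest it can give with 3 against 3. With length and GC adjustment the difference was 0.0092.

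Ppara, the fatty acid receptor, had 9488, 13780 and 8394 in mutants 328, 336 and 342, against 11079, 14755 and 21972 in wild types 330, 331 and 337. The wild types spread over a wider range than the mutants, and mutant 336 exceeded wild type 330. Its log2 difference of -0.57 (SE 0.29, 95% interval -1.21 to 0.0696, adjusted p = 0.293 in limma) was the largest of the 5 in size. The order of the libraries mirrored that of Hnf4a by depth class, with every lower-class library above every higher-class one. For Hnf4a and Ppara together this makes 2 of 5 regulators split by depth class, where 30.0% of all genes were. The difference was -0.35 with depth class as a covariate. Length and GC adjustment gave -0.70.

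Esrra, the mitochondrial regulator, had 37052, 29443 and 25567 in mutants 328, 336 and 342, against 29380, 13119 and 33101 in wild types 330, 331 and 337. Wild type 331 stood alone at the bottom, and the other 5 libraries were intermixed. The log2 difference was 0.38 (SE 0.31, 95% interval -0.31 to 1.06, adjusted p = 0.486 in limma). It was -0.0403 without wild type 331 and -0.15 with length and GC adjustment. The longest transcript of Esrra has 61.8% GC, the highest of the 5, followed by Rxra with 57.0%, Hnf4a with 53.7%, Ppara with 51.5% and Maf with 47.4%.

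Maf, the leucine zipper factor, had 49616, 49093 and 43438 in mutants 328, 336 and 342, against 39746, 77855 and 71611 in wild types 330, 331 and 337. The mutants lay close together, above wild type 330 and below wild types 331 and 337. Its log2 difference was -0.36 (SE 0.24, 95% interval -0.88 to 0.17, adjusted p = 0.397 in limma). Within the higher depth class, where wild type 330 was the lone wild type, it was 0.22, and within the lower class, where mutant 336 was the lone mutant, -0.60. Macrophages also make Maf, and the summed signal of 7 of 12 macrophage markers analysed was 99065 to 104654 in mutants and 61000 to 62079 in wild types. In limma 0 of those 7 passed the adjusted threshold and 5 were higher at an unadjusted p under 0.05 (10.5% of all genes were). The part of these markers in the Maf values was not tested.

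The within-class values of the other 4 had the same sign in both classes. They were 0.13 in the higher and 0.0952 in the lower class for Hnf4a, and -0.31 in the higher and -0.39 in the lower class for Ppara. Rxra gave 0.12 in the higher and 0.68 in the lower class, and Esrra 0.0671 in the higher and 0.50 in the lower class. Each rests on 1 library on one side and was not tested. Depth and genotype are partly confounded, since 2 of 3 mutants and 1 of 3 wild types are in the higher class.

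**Figure D2:**
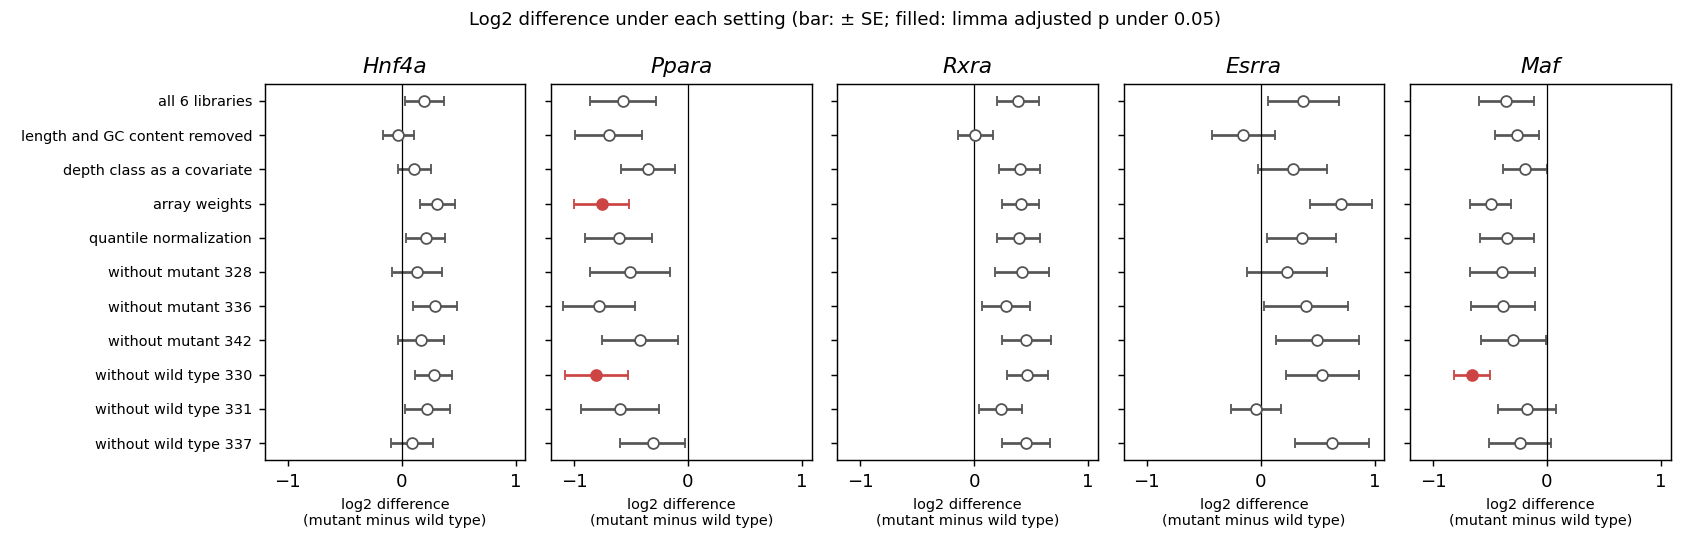
Log2 difference (mutant minus wild type, horizontal axis, bars ± SE) of each regulator under the settings named on the left, filled where the limma adjusted p was under 0.05. Ppara was past the threshold without wild type 330 and with array weights, Maf without wild type 330, and the other 3 genes under none of the settings shown.

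Leaving out wild type 330 brought some of the 5 past the threshold. Without it Ppara had a log2 difference of -0.80 (adjusted p = 0.0489 in limma) and Maf one of -0.66 (adjusted p = 0.0128 in limma), so 2 of 5 passed. In that fit 3095 of 11578 genes passed, or 26.7%, and 12.3% were lower. Array weights were highest for mutant 328 (5.33), lowest for wild type 330 (0.298) and 0.723 to 1.19 for the others, so mutant 328 dominated that fit. With them Ppara alone of the 5 passed (-0.76, adjusted p = 0.0304 in limma), beside 30.2% of all genes (13.6% lower). With depth class as a covariate 0 of 5 passed, where 0.371% of genes did, and with length and GC adjustment 0 of 5, where 0.434% did. Of the 179 listed genes analysed 4 passed in limma, 58 without wild type 330 and 66 with array weights, and 0 without mutant 328, mutant 342 or wild type 331.

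**Figure D3:**
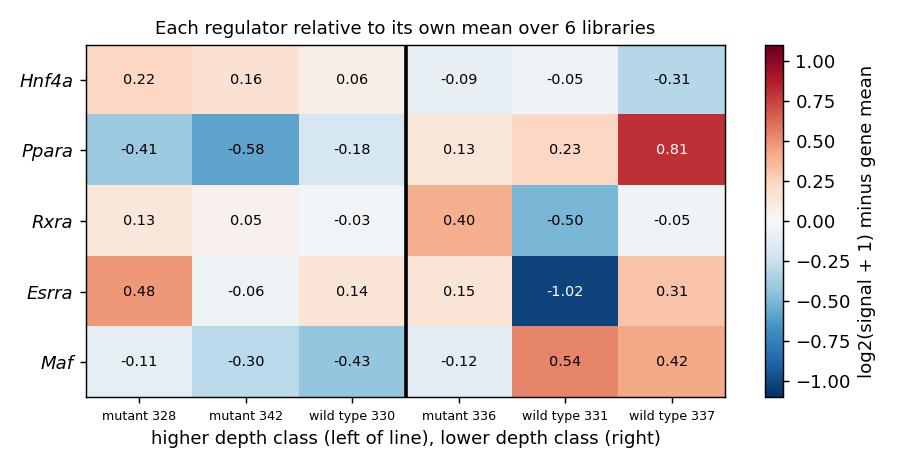
Log2(signal + 1) of each regulator minus its own mean over the 6 libraries, with the higher depth class left of the line. Hnf4a and Ppara have opposite signs in every library, and wild type 331 is lowest for Rxra and Esrra (-0.50 and -1.02) and highest for Maf (0.54).

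Among themselves the 5 did not share one pattern over the kidneys. Ppara and Maf lay on the same side of their means in 5 of 6 libraries, with a root mean square difference of 0.30 between their centred log2 values. Hnf4a and Ppara lay on the same side in 0 of 6 (0.63), and Esrra and Maf were the least alike of the 10 pairs (0.74). Wild type 331 held the extreme value for Rxra, Esrra and Maf.

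The genes closest to each regulator by that measure, over 6 libraries and all genes but predicted models, were as follows. Prkag2, Erp29 and Zfp61 were closest to Hnf4a at 0.0214 to 0.0398. Ccdc120, Cecr5 and Zfp13 were closest to Rxra at 0.0517 to 0.0602, and Sp4, Col11a1 and Cpeb2 to Ppara at 0.0628 to 0.0877. Arrdc3, Cyb5rl and Ttpal were closest to Maf at 0.0595 to 0.0830, and Spr, Ccdc61 and Otub2 to Esrra at 0.116 to 0.128. With 6 libraries and 11578 genes such closeness is a description of these kidneys.

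Per kilobase of the longest GENCODE transcript, the regulators kept an order of level. Signal per kb was 26682 to 38746 over the 6 libraries for Hnf4a, above every library's value of the other 4. It was 12320 to 23038 for Rxra, 5851 to 16526 for Esrra, 6249 to 12241 for Maf and 2459 to 6438 for Ppara. Ranges of neighbours below Hnf4a overlapped, but the order Hnf4a, Rxra, Esrra, Maf, Ppara held within 5 of 6 libraries. In wild type 331 Maf stood above Esrra. Genes compared per kb may still differ in how well they were captured, which was not tested.

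**Figure D4:**
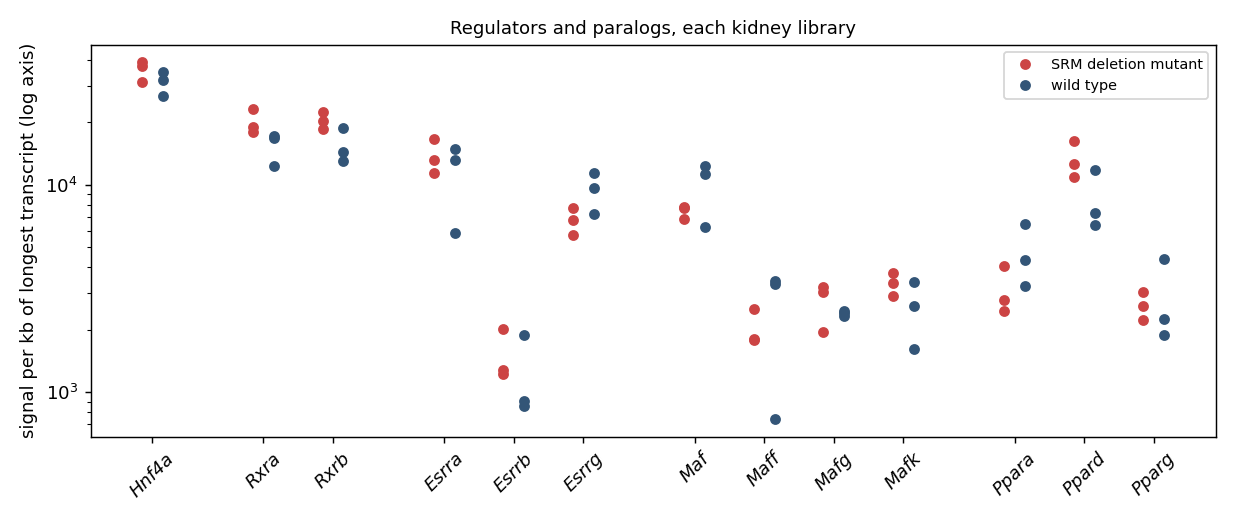
Signal per kb of the longest transcript (log axis) of the regulators and 8 paralogs, 1 point per library, SRM deletion mutants left of wild types. Hnf4a is the highest of the 5 regulators, and Ppard lies above Ppara.

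Of 13 paralogs 9 were analysed and 0 passed in limma, with 2 higher and 1 lower at an unadjusted p under 0.05, where 10.5% of all genes were higher and 8.51% lower. Ppard, the broadly expressed receptor of the Ppara family, had 41035, 53205 and 35650 in mutants 328, 336 and 342, against 38550, 21038 and 23785 in wild types 330, 331 and 337. Its log2 difference was 0.67 (SE 0.25, adjusted p = 0.241 in limma). It averaged 10846 signal per kb against 3881 for Ppara. Rxrb, the other widely expressed RXR, had a log2 difference of 0.42 (SE 0.19, adjusted p = 0.260 in limma), or -0.11 with length and GC adjustment. It had a mean of 17844 signal per kb against 17719 for Rxra. Every lower-class library of Rxrb lay below the higher class, and 30.0% of all genes were split by depth class in either direction. Esrrg, a relative of Esrra, had a log2 difference of -0.47 (SE 0.21, adjusted p = 0.257 in limma) and every lower-class library above the higher class.

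Of the 5 other regulators of nephron segments, 0 passed in limma and 3 were higher at an unadjusted p under 0.05, as 10.5% of all genes were. Nr1h4, the bile acid receptor FXR and an RXR partner, had 12359, 9211 and 11595 in mutants 328, 336 and 342, against 4232, 5647 and 5604 in wild types 330, 331 and 337. These groups did not overlap, which was so for 19.5% of all genes. The log2 difference was 1.10 (SE 0.27, adjusted p = 0.206 in limma). The mean signal of Nr1h4 was 8108, which ranked 10257 by level among the 11578 genes. Pax8, an early nephron regulator, had a log2 difference of 0.72 (SE 0.20, adjusted p = 0.231 in limma), with all mutants above all wild types.

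Among 9 coactivators 0 passed in limma and 1 was lower at an unadjusted p under 0.05 (8.51% of all genes were). That one was Ppargc1a, which encodes PGC-1α, the inducible coactivator of Esrra and Ppara. It had 18311, 25372 and 16985 in mutants 328, 336 and 342, against 27174, 31423 and 39920 in wild types 330, 331 and 337. All mutants were below all wild types, and 19.5% of all genes had no overlap in either direction. The log2 difference was -0.70 (SE 0.22, adjusted p = 0.231 in limma).

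Other receptors that pair with RXR, or bind the same direct repeats, included 0 of 13 past the adjusted threshold in limma. Of 8 RXR partners 4 were higher and 1 lower at an unadjusted p under 0.05, against 10.5% and 8.51% of all genes. The median log2 difference of the 8 was 0.45, or 0.23 with length and GC adjustment. Under that adjustment Rarg, a retinoic acid receptor among the 4 higher, changed sign. Nr1h2, the oxysterol receptor LXRβ, had a log2 difference of 0.71 (SE 0.23) and Rara, a retinoic acid receptor, one of 0.72 (SE 0.28). Rarb, a retinoic acid receptor that is itself induced by retinoic acid, had one of -0.69 (SE 0.22). Of 5 orphan receptors that bind the direct repeats used by Hnf4a, 2 were higher at an unadjusted p under 0.05 (10.5% of all genes). These were Nr2f1 and Nr2f6, and Nr2f6 changed sign with length and GC adjustment. Nr2f1 (COUP-TFI) had 57021, 53142 and 56040 in mutants 328, 336 and 342, against 31794, 23656 and 32451 in wild types 330, 331 and 337. These groups did not overlap, which was so for 19.5% of all genes, and the log2 difference was 0.93 (SE 0.18, adjusted p = 0.0764 in limma). Nr2f2 (COUP-TFII), the most abundant of them by signal, had one of -0.22 (SE 0.17).

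**Figure D5:**
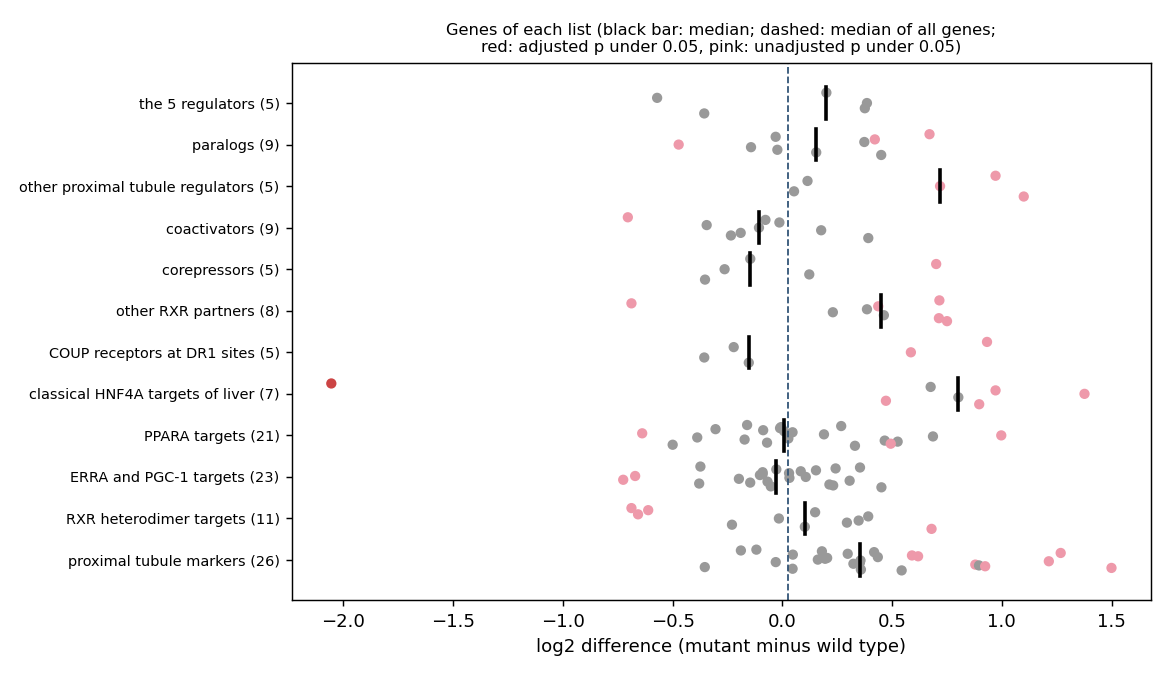
Log2 difference (mutant minus wild type) of each analysed gene, by list, with the number of genes in brackets, medians as black bars and the median of all genes dashed. Apom is the only gene shown past the limma adjusted threshold, and the PPARA and ERRA target lists centre near 0.

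The lists of known target genes did not move as one. Of 19 classical Hnf4a targets known from liver 7 were analysed, with a median log2 difference of 0.80 against 0.0242 for all genes. Apom, an apolipoprotein of high density lipoprotein, had 2829, 3467 and 3557 in mutants 328, 336 and 342, against 12597, 11952 and 16624 in wild types 330, 331 and 337. It fell in mutants by 2.05 on the log2 scale (SE 0.28, adjusted p = 0.0160 in limma). That call was lost without mutant 328, mutant 342 or wild type 331 (limma adjusted p of 0.0791, 0.0679 and 0.0674). The other 6 had differences above 0, as did 6071 of all 11578 genes. Of these 6, 4 had an unadjusted p under 0.05 (10.5% of all genes were higher at that p) and 0 an adjusted one in limma.

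Of 26 listed Ppara targets, most of them genes of fatty acid use, 21 were analysed and 0 passed in limma. At an unadjusted p under 0.05, 2 were higher and 1 lower, no more than the 10.5% higher and 8.51% lower among all genes. Their median log2 difference was 0.00861, and 11 lay above and 10 below 0. Ech1, a peroxisomal and mitochondrial isomerase, had a log2 difference of 0.49 (SE 0.18). Hadhb, the thiolase subunit of the mitochondrial trifunctional protein, had one of -0.64 (SE 0.25), whereas Hadha, its partner subunit, had 0.0468 (SE 0.16). Cyp4a10, a fatty acid hydroxylase and textbook Ppara target in mouse liver, had one of 0.998 (SE 0.42).

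All 23 listed Esrra and PGC-1 targets, mitochondrial genes mainly of the citric acid cycle and respiratory chain, were analysed and 0 passed in limma. At an unadjusted p under 0.05, 0 were higher and 2 lower, where 10.5% of all genes were higher and 8.51% lower. The median was -0.0271, with 11 above and 12 below 0. Cox6c, a small subunit of cytochrome oxidase, had a log2 difference of -0.72 (SE 0.25) and Cycs, cytochrome c, one of -0.67 (SE 0.29). Atp5b, the catalytic ATP synthase subunit and the most abundant by signal, had 0.11 (SE 0.19).

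Of 15 targets of RXR with its partners 11 were analysed, 0 passed in limma, and 1 was higher and 3 were lower at an unadjusted p under 0.05 (10.5% of all genes were higher and 8.51% lower). The 3 were Rarb, Cyp26b1, which degrades retinoic acid, at -0.61 (SE 0.24) and Stra6, a retinol transporter, at -0.66 (SE 0.25). The median of the 11 was 0.10, but -0.0135 without mutant 328 and -0.0344 with length and GC adjustment.

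Proximal tubule markers had a median log2 difference of 0.35, with 22 of 26 above 0, as were 6071 of all 11578 genes. In limma 0 of the 26 passed, and 7 were higher and 0 lower at an unadjusted p under 0.05, where 10.5% of all genes were higher and 8.51% lower. Kap, an androgen-regulated protein of the segment, had a log2 difference of 1.50 (SE 0.28, adjusted p = 0.0654 in limma). The glucose transporter Slc5a2 had one of 1.27 (SE 0.30) and the gluconeogenic enzyme Fbp1 one of 0.88 (SE 0.23). Among the 4 markers below 0 were Keg1 at -0.35 (SE 0.17) and Lrp2, the most abundant marker by signal, at -0.12 (SE 0.19). Slc3a1, named for its promoter after the letters were searched, had 121676, 87579 and 120775 in mutants 328, 336 and 342, against 76574, 83265 and 96778 in wild types 330, 331 and 337 (log2 difference 0.35, SE 0.18). The summed marker signal was 3143328, 2019980 and 2555999 in mutants, against 2318861, 1993926 and 1782940 in wild types in the same order. Mutant 336 was below wild type 330, so the summed markers overlapped between the groups, as Hnf4a did. Of the markers of less mature segments, Cdh6, a cadherin of the immature proximal tubule, had 30080, 23155 and 21890 in mutants, against 31044, 44709 and 37111 in wild types. All mutants were below all wild types, and 19.5% of all genes had no overlap in either direction. The log2 difference of Cdh6 was -0.59 (SE 0.21, adjusted p = 0.235 in limma). Of the 5 genes on that list 0 passed in limma, and 1, Cdh6, was lower at an unadjusted p under 0.05 (8.51% of all genes). The median log2 difference of the 5 was 0.0534, with 3 above and 2 below 0. That median ran from -0.26 to 0.27 and changed sign in 6 of the 14 alternatives.

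The other cell types of the kidney were read from 8 marker lists, chosen with earlier results of these data known. In limma 2 of 6 progenitor markers and 1 of 5 thick ascending limb markers passed, and none in the other lists. Over all genes 0.285% passed, a share that lists chosen in this way cannot be compared with. Cited1 and Tmem100, both made by nephron progenitors, fell in mutants by 1.70 (SE 0.27, adjusted p = 0.0240) and 2.04 (SE 0.34, adjusted p = 0.0280) on the log2 scale. Six2, the defining progenitor regulator, had a log2 difference of 0.11 (SE 0.27). Kcnj1, the ROMK potassium channel of the thick ascending limb, fell in mutants by 1.24 (SE 0.17, adjusted p = 0.0162). These 3 calls were lost without mutant 328 (adjusted p of 0.0791 to 0.112 in limma), mutant 342 (0.124 to 0.189) or wild type 331 (0.128 to 0.248), and without mutant 336 (0.0595 to 0.125). That of Tmem100 was also lost without wild type 337 (0.169). Without the variance trend Cited1 (0.0551) and Tmem100 (0.0557) no longer passed, whereas Kcnj1 (0.0346) did. The median log2 difference was -0.41 for 6 progenitor markers (-0.56 to -0.25 over the 14 alternatives), 0.61 for 7 macrophage markers (0.46 to 0.74), 0.20 for 6 stroma markers (0.13 to 0.25) and 0.19 for 7 podocyte markers (0.0700 to 0.29). For 5 thick ascending limb markers it was -0.32, but -0.65 without wild type 331, -0.0494 without wild type 337 and -0.0292 with array weights. The medians of 7 collecting duct markers (-0.016, range -0.20 to 0.12), 8 endothelium markers (0.0137, range -0.0533 to 0.0706) and 4 erythroid markers (0.12, range -0.13 to 0.28) changed sign over the alternatives. The erythroid median was -0.13 without mutant 342. The podocyte median was 0.0878 without mutant 336 and 0.29 without wild type 331. The part of any of these cell types in the values of the 5 regulators was not tested.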

How the data were processed

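Per the labels' protocols, each library began with 4 to 5 µg total RNA, was enriched for poly(A) and was built for Ion Torrent sequencing. The authors deposited 1 signal value per gene and library, whole numbers whose totals they had made almost equal. The submitters' processing notes name the mm10 build and bedtools. Aligner, annotation, counting and scaling were not given in the sources used here. The deposited table also holds the authors' ratio of group means, log2 values of these means and a p-value for each gene.

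All 11578 genes entered limma 3.58.1 (R 4.3.3, variance trend) on log2(signal + 1), with Benjamini-Hochberg adjustment and no further filter. The lowest mean signal of a gene in the deposited table was 3146, so genes of lower mean signal have no row. The code was checked on simulated data. Depth was estimated from the spacing of the values, and no read counts were recovered. The design foresaw counts or normalized values, and the values were treated as normalized. Length and GC content of the longest GENCODE M21 transcript, found for 11518 genes, were taken out by splines. The members and 20 lists (217 genes, 179 analysed) were chosen with earlier results of these data known. Named genes are the 5 members, their 3 closest profiles, their paralogs and, of each list, up to 4 genes past the threshold or else 3 with the smallest p, and the most abundant. Some genes that this rule selects are not reported here.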

Additional observations from a re-analysis of the deposited data

How the results depend on the processing

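Settings varied were the pseudocount (1000), a minimum mean of 10000, quantile and median scaling, the variance trend, array weights, depth class, length and GC adjustment, the threshold (0.1), the authors' p-values and each library left out. Leaving out 1 library gave 2 to 3095 changed genes against 33, 0 to 2 changed regulators against 0, and log2 differences of -0.80 to -0.31 for Ppara, -0.66 to -0.17 for Maf, -0.0403 to 0.63 for Esrra, 0.0938 to 0.29 for Hnf4a and 0.23 to 0.47 for Rxra. The lowest Hnf4a value came without wild type 337 and the lowest Rxra value without wild type 331. The 3095 genes and 2 regulators came without wild type 330, and 2 genes without mutant 328. Array weights, which weighted mutant 328 most (5.33), gave 3493 changed genes, 1 changed regulator and -0.76 for Ppara. Length and GC adjustment gave 50 changed genes, -0.029 for Hnf4a and -0.15 for Esrra. The authors' p-values, adjusted, gave 0 genes and 0 regulators. The cause of these shifts was not tested. Over the 14 alternatives adjusted p ran from 0.131 to 0.943 for Hnf4a, 0.0304 to 0.675 for Ppara, 0.0714 to 0.989 for Rxra, 0.0619 to 0.938 for Esrra and 0.0128 to 0.779 for Maf. List medians lay between -0.0532 and 0.10 for Ppara targets, -0.0935 and 0.0897 for Esrra targets, -0.0344 and 0.22 for RXR targets, and 0.22 and 0.58 for proximal tubule markers. No paired analysis was possible because the groups share no library number. Estimated depth was lowest in wild type 337, and its effect on precision was not tested.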

Other observations

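The signal of Ppara relative to Ppard, a ratio chosen after the values were seen, was 0.231, 0.259 and 0.235 in mutants 328, 336 and 342, against 0.287, 0.701 and 0.924 in wild types 330, 331 and 337. All mutants were below all wild types, and wild type 330 lay nearer to the mutants than to the other wild types. Esrra relative to Esrrg was 1.03, 0.713 and 0.829 in the mutants, against 0.757, 0.255 and 0.539 in the wild types, and these overlapped. Rxra relative to Rxrb was 1.59, 2.31 and 1.67 in the mutants, against 1.71, 1.78 and 2.18 in the wild types. The longest Ppard transcript is richer in GC than that of Ppara, and with length and GC adjustment the log2 difference of Ppard was 0.18 (SE 0.16) and that of Ppara -0.70 (SE 0.29).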
